A study of Mus musculus with 8 samples.

Results

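Chromatin accessibility was followed at 8 genes that set the balance between survival and death of B cell precursors: Bcl2, Bcl2l1, Mcl1, Bcl2l11, Bmf, Bbc3, Bcl6 and Bach2. The measurements were ATAC-seq peak lists, in which cutting by the Tn5 transposase marks open chromatin, from B3 cells. B3 is a mouse lymphoma-derived line with the expression profile of pre-B cells, and all libraries came from cells transduced with Ikaros-ERt2, a fusion that brings the transcription factor Ikaros (IKZF1) into the nucleus once 4-hydroxytamoxifen (4-OHT) is added. Cells were left untreated (0 h) or received 4-OHT (500 nM) during 30 min, 1 h or 2 h. There were 2 libraries at each time and 8 lists in all. The 0 h cells had no treatment, so effects of 4-OHT or its solvent and effects of IKZF1 cannot be told apart, and the transduced cells are 1 line. The labels number the replicates but do not say whether they were separate cultures, so p-values measure the spread between these libraries only.

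The members were all peaks with a summit in the body of 1 of the 8 genes or within 20 kb of it (GENCODE vM21, genome build GRCm38). This gave 951 of the 767727 peaks. Merged where they overlapped, they formed 202 of the 174718 regions of the series, among them 65 found in every list and 56 found in 1 list only. Bach2, the longest gene, held 62 regions, followed by Bcl2 with 29, Bcl2l1 with 26, Bcl2l11 with 20, Bmf with 19, Bcl6 with 16, and Mcl1 and Bbc3 with 15 each. No region counted for more than 1 of the genes. The summit lay in an intron in 135 regions and between genes in 52, and 6 regions sat at the start site of another transcript only, such as Tpx2 beside Bcl2l1. The lists held 85903 to 103897 peaks, with a median of 11 to 14 fragments at the summit of a peak. As a check on the cell type, 5 of 6 pre-B marker genes had a peak at a start site in all 8 lists, while Vpreb1 had one in 4 lists. Of the 11 T cell, myeloid and erythroid markers none had a peak in all 8 lists, though Cd3g had one in 7 and Epor in 5.

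The BCL-2 family decides whether mitochondria release the factors that activate caspases. Bcl2, Bcl2l1 (BCL-XL) and Mcl1 encode pro-survival members that restrain the pore formers BAX and BAK, whereas Bcl2l11 (BIM), Bmf and Bbc3 (PUMA) encode BH3-only proteins that bind and block the pro-survival members. Bcl6 and Bach2 encode transcriptional repressors of B cells: BCL6 protects pre-B cells during immunoglobulin light chain rearrangement, and BACH2 acts at the pre-B cell receptor checkpoint and on BCL6 targets. IKZF1 binds DNA through zinc fingers that read a GGAA or GGGA core.

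The sequences below are shown because they carry the changes that follow. They are 200 bases around the summit, plus strand of GRCm38 (RefSeq copy of the build), with matches to the core GGAA (or its complement, TTCC) and to the core GGGA (or, on the other strand, TCCC) in capitals. The first pair fell, the second pair rose, and the last pair are the lost and the gained region of highest rank. The start-site region of Bcl2l1, which also fell, is not printed because exons at the 5′ end of the gene overlap it.
Bcl2 intron, chr1:106555600-106555799: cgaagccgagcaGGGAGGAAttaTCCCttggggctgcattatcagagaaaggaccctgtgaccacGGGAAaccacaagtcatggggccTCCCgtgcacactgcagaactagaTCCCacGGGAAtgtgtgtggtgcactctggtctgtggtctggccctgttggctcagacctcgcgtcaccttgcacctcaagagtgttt
Bach2 intron, chr4:32376497-32376696: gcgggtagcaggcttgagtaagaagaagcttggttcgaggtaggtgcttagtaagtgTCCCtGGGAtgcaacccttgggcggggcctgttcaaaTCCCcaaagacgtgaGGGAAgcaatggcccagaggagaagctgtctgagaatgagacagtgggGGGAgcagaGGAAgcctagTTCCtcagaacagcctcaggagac
Bcl2l1 downstream, chr2:152775468-152775667: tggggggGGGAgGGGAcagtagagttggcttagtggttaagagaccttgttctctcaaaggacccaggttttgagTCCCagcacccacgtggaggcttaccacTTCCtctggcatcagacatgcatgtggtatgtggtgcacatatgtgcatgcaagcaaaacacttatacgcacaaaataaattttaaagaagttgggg
Bach2 upstream, chr4:32231781-32231980: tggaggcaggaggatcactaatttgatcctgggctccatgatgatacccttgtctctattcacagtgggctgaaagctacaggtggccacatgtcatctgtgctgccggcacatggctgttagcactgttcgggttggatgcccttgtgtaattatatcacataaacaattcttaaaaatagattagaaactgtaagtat
Bach2 intron, lost, chr4:32303739-32303938: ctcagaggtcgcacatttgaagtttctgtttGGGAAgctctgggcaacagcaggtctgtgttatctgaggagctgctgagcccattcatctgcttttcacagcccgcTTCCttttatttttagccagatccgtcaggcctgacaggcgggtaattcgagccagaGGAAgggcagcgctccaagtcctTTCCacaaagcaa
Bach2 intron, gained, chr4:32351290-32351489: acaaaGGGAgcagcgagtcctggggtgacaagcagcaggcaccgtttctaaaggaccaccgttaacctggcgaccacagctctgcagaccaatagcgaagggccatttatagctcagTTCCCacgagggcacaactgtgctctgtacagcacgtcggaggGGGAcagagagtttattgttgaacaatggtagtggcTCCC

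To ask which of these regions opened or closed after IKZF1 induction, each region was followed by the within-list percentile of its highest peak, that is, the share of peaks of the same list with an equal or lower fold over local background. The lists are not scaled to each other and differ in length. Over all 47875 regions found in every list the median percentile moved by 2.80 after 30 min, 3.57 after 1 h and 3.66 after 2 h against 0 h, and changes are read relative to that. The test was limma on normal scores of the ranks among these 47875 regions, in units of the standard deviation of a library's ranks, with a Benjamini-Hochberg adjusted p under 0.01 over all regions. In bulk ATAC-seq, fewer cells with an open site and less opening in each cell cannot be told apart.

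At 2 h, 3 of the 65 tested member regions fell and 2 rose. The falls were in an intron of Bcl2, at an inner start site of Bcl2l1 and in an intron of Bach2. The rises were downstream of Bcl2l1 and upstream of Bach2. These are 4.62% and 3.08% of the members, beside 4.71% lower and 2.28% higher of all tested regions, so the shares at the 8 loci were near the background. At 1 h the same 5 regions passed, again 3 lower and 2 higher, beside 2.51% and 1.1% of all regions. At 30 min limma called no member lower or higher, and 0% of all regions in either direction. An unadjusted p under 0.05 was reached by 12 members after 30 min, 7 of them lower, and by 9311 of all regions. The other 60 members did not pass after 2 h. The median shift of the 65 members was 2.41 percentile points after 2 h, less than that of all regions.

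**Figure D1:**
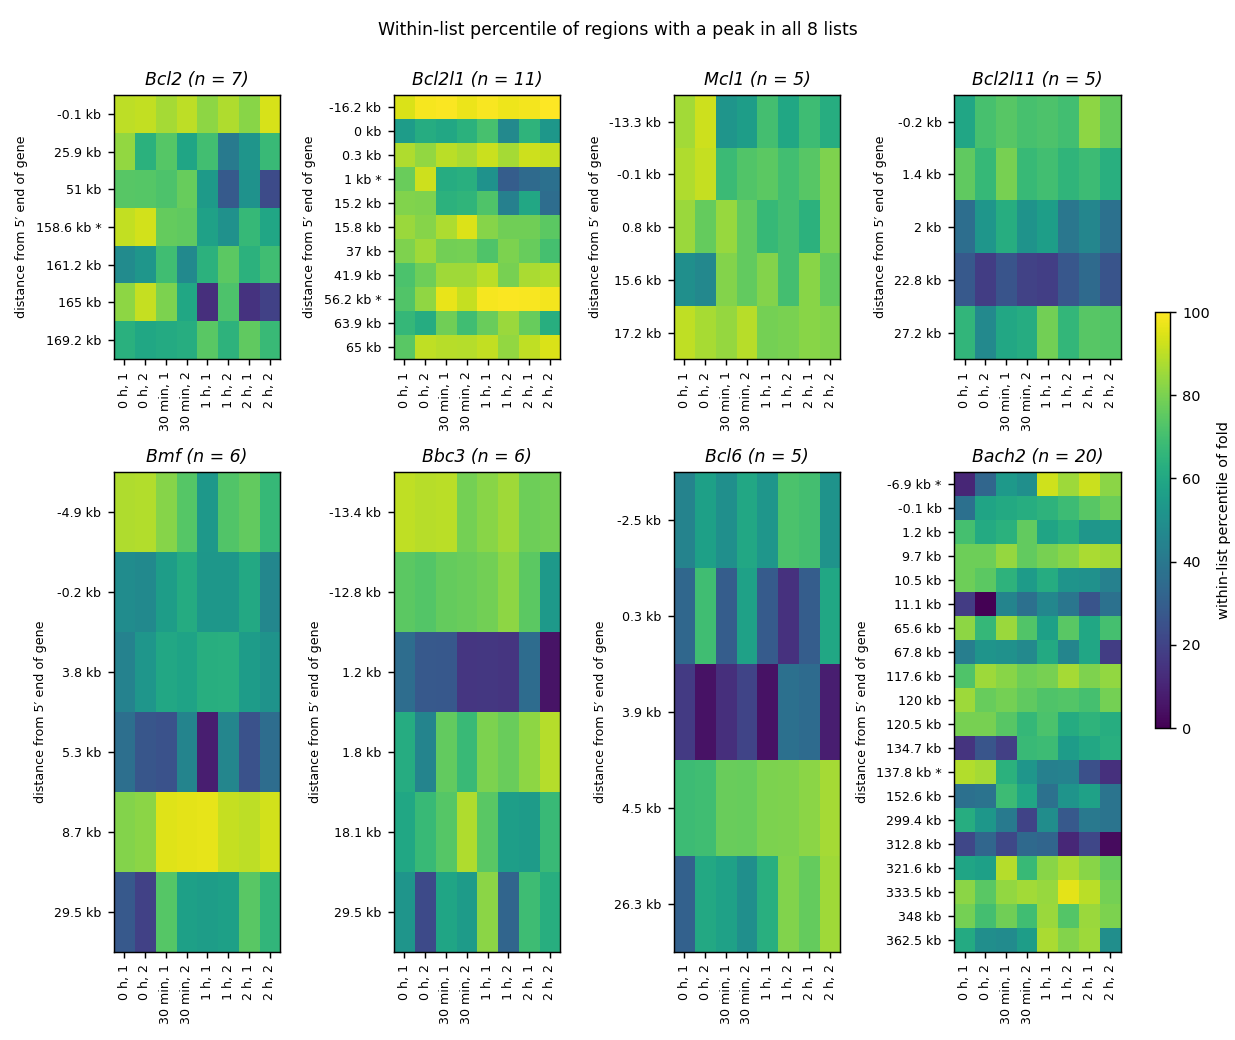
Within-list percentile (colour, 0 to 100) of the 65 regions found in every list, one panel per gene, with libraries in columns and regions in rows ordered by distance from the 5′ end of the gene in kb. Asterisks mark the 5 regions past the threshold after 2 h, 3 of which darken and 2 of which brighten from left to right.

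The largest called fall was in an intron of Bach2, 137.8 kb from the 5′ end of the gene (chr4:32376512-32376744). Its percentile was 88.7 and 86.4 in the 0 h libraries, 63.9 and 52.4 after 30 min, 43.4 and 44.2 after 1 h, and 24.5 and 13.9 after 2 h. The 0 h and 2 h libraries were far apart, and each later pair lay below the pair before. Fragments at the summit went from 42 and 28 before 4-OHT to 8 and 7 after 2 h. The difference was -2.65 ± 0.26 (SE, n = 2 libraries a time) in normal scores (limma, adjusted p = 0.000958). This region kept its call under each of the 15 alternatives of the fit that gave it a value, each left-out library included.

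The Bcl2l1 fall was at the start-site cluster of the gene, 1.0 kb inside its 5′ end and 21 bases upstream of an inner annotated start (chr2:152830534-152830827). Percentiles were 77.1 and 92.2 before 4-OHT, 61.8 and 63.3 after 30 min, 51.2 and 29.3 after 1 h, and 34.6 and 36.8 after 2 h. Both libraries of each later time were below both 0 h libraries. The summit held 59 and 62 fragments before 4-OHT against 23 and 21 after 2 h, and the difference was -2.00 ± 0.34 (limma, adjusted p = 0.00415).

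The remaining fall was in a Bcl2 intron, 158.6 kb from the 5′ end and 17.5 kb short of the 3′ end of the gene, where the transcript model D630008O14Rik overlaps it (chr1:106555562-106555798). Its libraries stood at the 90.8th and 93.3rd percentile before 4-OHT, at 76.2 and 75.6 after 30 min, at 57.2 and 50.6 after 1 h, and at 67.2 and 59.2 after 2 h. The groups did not overlap, and the lowest values were those of 1 h. There were 48 and 41 fragments before 4-OHT and 17 and 14 after 2 h (difference -1.50 ± 0.26, limma, adjusted p = 0.00432). All 3 regions that fell were among the stronger peaks of the 0 h lists.

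The larger rise was 6.9 kb upstream of Bach2, between genes (chr4:32231813-32232029). From percentiles of 10.6 and 33.1 before 4-OHT it reached 53.8 and 49.8 after 30 min, 92.7 and 85.4 after 1 h, and 92.2 and 82.6 after 2 h. A weak peak of 5 and 6 fragments thus became a peak of 33 and 24 fragments, and the values of 1 h and 2 h overlapped. Its difference after 2 h was 2.29 ± 0.36 (limma, adjusted p = 0.00305).

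The second rise was 5.1 kb past the 3′ end of Bcl2l1 (chr2:152775480-152775736). It went from 72.7 and 83.5 before 4-OHT to 96.7 and 91.4 after 30 min, 98.7 and 99.2 after 1 h, and 98.9 and 98.4 after 2 h. By 2 h it was among the strongest peaks of the lists, with 56 and 51 fragments against 17 and 20 before 4-OHT (difference 1.60 ± 0.30, limma, adjusted p = 0.00643). Bcl2l1 and Bach2 each held a region that fell and one that rose, and no region of Mcl1, Bcl2l11, Bmf, Bbc3 or Bcl6 passed. Except for the Bach2 intron, each call was lost without single libraries. Calls over all tested regions also became fewer whenever a library was left out, so these losses are not particular to the members. The Bcl2 call ended without any 0 h or 2 h library (adjusted p = 0.0174 to 0.0342), and that at the Bcl2l1 start without replicate 2 of 0 h or either 2 h library (0.0256 to 0.0317). The latter also ended with ranks among all peaks (0.0105) and with regions found in at least 2 lists (0.0124). The Bcl2l1 rise ended without any library of 0 h, 1 h or 2 h (0.0103 to 0.0448), and the Bach2 rise without replicate 1 of 0 h or either 2 h library (0.0144 to 0.0277).

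**Figure D2:**
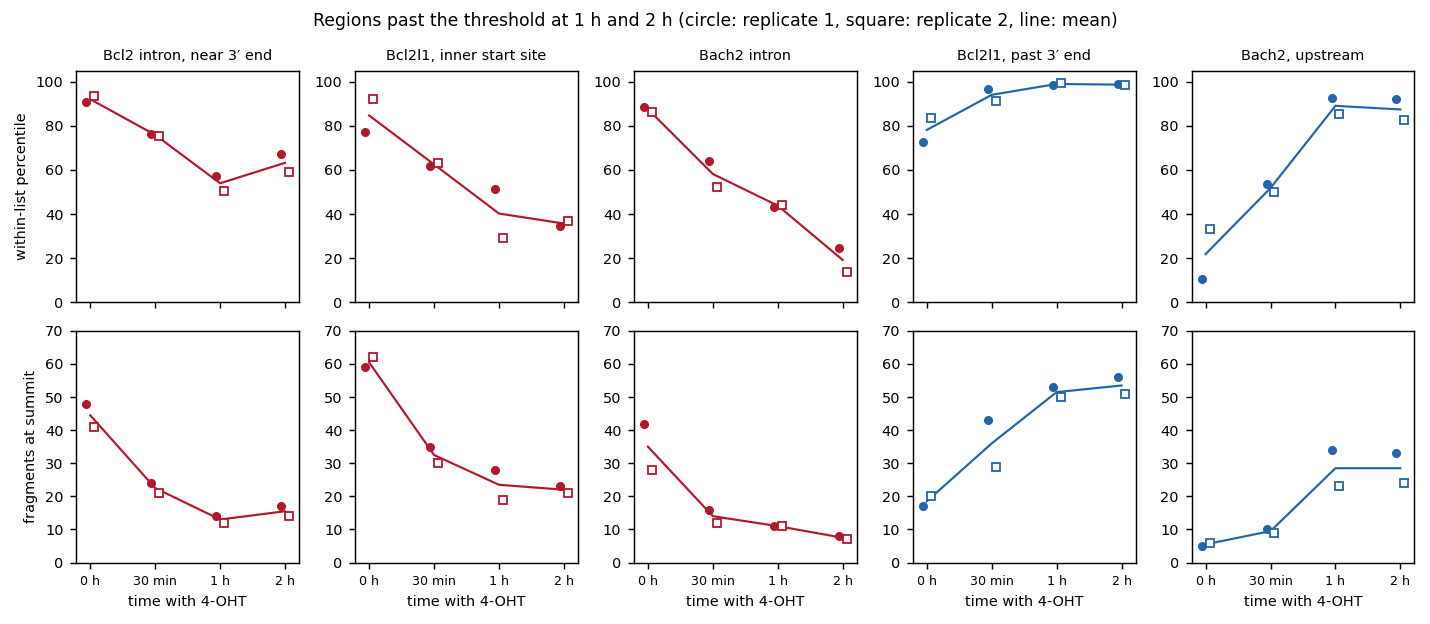
Within-list percentile (top) and recovered fragments at the summit (bottom) of the 5 regions past the threshold, by time with 4-OHT. Points are the 2 libraries of a time and lines their mean; the 3 red regions have 28 to 62 fragments in the 0 h libraries and 7 to 23 in those of 2 h, and the 2 blue regions go from 5 to 20 up to 24 to 56.

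Among the pro-survival genes, the region at the main start site of Bcl2 (chr1:106714132-106714862) was strong throughout. It stood at 89.9 and 90.7 before 4-OHT and at 82.1 and 93.8 after 2 h, with a difference of -0.20 ± 0.33 (limma, adjusted p = 0.71). The groups overlapped. A neighbouring peak over the first exon, seen at the 0.754th and 30.9th percentile before 4-OHT, was in no list after induction. The largest numerical falls and rises of each gene are given among regions found in every list. The fall at Bcl2 was at 165 kb, in the same overlapped intron as the called region (chr1:106549186-106549380). Percentiles of 83.2 and 91.3 before 4-OHT stood beside 80.3 and 59.5 after 30 min, 13.5 and 72.0 after 1 h, and 14.5 and 19.5 after 2 h. Because the 1 h libraries differed by far, its difference of -2.68 ± 0.59 did not pass (adjusted p = 0.0128), while leaving out a 1 h library brought it to 0.0029. The largest numerical rise, at 161.2 kb, was from 48.4 and 52.6 to 64.2 and 69.2 (adjusted p = 0.466).

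Bcl2l1 has several start sites. The strongest region there before 4-OHT (chr2:152831087-152831529), 0.3 kb inside the 5′ end, had percentiles of 88.1 and 83.6 before 4-OHT and 92.6 and 91.1 after 2 h. Its difference was 0.28 ± 0.26 (limma, adjusted p = 0.473), and 80 and 47 fragments before 4-OHT faced 81 and 66 after 2 h. The region that fell begins 259 bases away, so these 2 start-site regions had values of opposite sign, a difference that was not tested. Another start-site region found in every list (chr2:152831651-152831851) had overlapping groups, with 55.4 and 62.0 before 4-OHT and 65.1 and 52.8 after 2 h. Its difference was -0.18 ± 0.32 (limma, adjusted p = 0.732). In the introns, a region at 15.2 kb had 80.9 and 80.5 before 4-OHT and 59.8 and 35.7 after 2 h (adjusted p = 0.0257).

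Mcl1, whose short-lived protein pre-B cells need, is the shortest window. Its start-site region strongest before 4-OHT (chr3:95658554-95658850) had 88.0 and 91.2 before 4-OHT, 68.3 and 72.7 after 30 min, 74.7 and 69.6 after 1 h, and 74.0 and 80.5 after 2 h. All 6 libraries after induction were below both 0 h libraries, yet the difference of -0.77 ± 0.27 after 2 h was not past the threshold (limma, adjusted p = 0.0745, and 0.0402 after 1 h). The same held 13.3 kb upstream (chr3:95645392-95645649), where 86.0 and 92.3 before 4-OHT stood beside 52.3 and 55.7 after 30 min and 69.0 and 62.4 after 2 h (adjusted p = 0.0157). The opposite order was found 11.2 kb past the gene (chr3:95674261-95674497), with 49.8 and 46.7 before 4-OHT, 81.4 and 75.8 after 30 min and 82.1 and 76.0 after 2 h (adjusted p = 0.0337). The other Mcl1 start-site region found in every list (chr3:95659484-95659720) had 84.9 and 76.5 before 4-OHT and 84.7 and 75.9 after 30 min. After 2 h it had 64.3 and 80.3, overlapping the 0 h libraries (limma, adjusted p = 0.279).

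Among the BH3-only genes, the start-site region of Bcl2l11 (chr2:128125636-128126166) had percentiles of 59.3 and 70.9 before 4-OHT and 82.8 and 76.5 after 2 h. Fragments were 31 and 29 before 4-OHT and 72 and 50 after 2 h, but the change in rank of 0.42 ± 0.27 did not pass (limma, adjusted p = 0.307). Further in, the largest numerical fall (1.4 kb, 75.8 and 67.0 to 68.5 and 63.1) and the largest rise (27.2 kb, 65.7 and 47.2 to 74.1 and 73.4) had adjusted p of 0.322 and 0.329. The lowest adjusted p of the 5 tested regions of Bcl2l11 was the 0.307 of its start site.

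At Bmf the start-site region (chr2:118549571-118549933) was at 48.8 and 47.6 before 4-OHT and 60.2 and 46.2 after 2 h, with overlapping groups (adjusted p = 0.946). The region with the largest rise lay 8.5 kb past the 3′ end (chr2:118520158-118520367). It had 27.9 and 19.2 before 4-OHT, 73.5 and 57.0 after 30 min, 55.8 and 56.9 after 1 h, and 74.3 and 66.0 after 2 h, and all 6 later libraries were above both 0 h libraries. With a difference of 1.34 ± 0.28 it missed the threshold narrowly (limma, adjusted p = 0.0102). A region 4.9 kb upstream had 88.1 and 88.5 before 4-OHT and 76.0 and 66.9 after 2 h (adjusted p = 0.0712).

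Bbc3 is a classical p53 target. The strongest of its start-site regions before 4-OHT, 0.5 kb past an annotated start (chr7:16310002-16310357), had 61.8 and 45.0 before 4-OHT, 76.0 and 67.6 after 30 min, 80.1 and 77.2 after 1 h, and 83.0 and 88.9 after 2 h. The 2 h libraries lay above both 0 h libraries, with 54 and 52 fragments against 30 and 13, and the difference was 1.13 ± 0.28 (limma, adjusted p = 0.0205). The other Bbc3 start-site region found in every list (chr7:16309188-16309714) had a difference of opposite sign, -0.70 ± 0.35 (limma, adjusted p = 0.188). It had 35.6 and 28.0 before 4-OHT, 16.0 and 15.5 after 1 h, and 35.2 and 5.33 after 2 h. The largest numerical fall among the Bbc3 regions found in every list was upstream at 13.4 kb, from 90.5 and 89.3 to 78.0 and 78.6 (adjusted p = 0.0835).

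For the repressors, the start-site region of Bcl6 (chr16:23988519-23988707) varied widely between libraries. This region is also at a start site of the gene model Gm37419, with its summit in a coding exon of that model. It had 33.4 and 69.4 before 4-OHT, 29.5 and 57.1 after 30 min, 28.7 and 14.2 after 1 h, and 29.6 and 59.5 after 2 h. Both 1 h libraries were below both 0 h libraries (adjusted p = 0.13 for 1 h), while those of 2 h overlapped them (difference -0.41 ± 0.51, limma, adjusted p = 0.612). Its largest numerical rise was 2.5 kb past the 3′ end, from 31.2 and 60.4 to 76.4 and 85.9 (adjusted p = 0.0794). At Bach2, a start-site region 1.2 kb inside the gene (chr4:32239305-32240079) had 70.4 and 61.3 before 4-OHT and 52.4 and 53.5 after 2 h (adjusted p = 0.165). The other Bach2 start-site region found in every list, 95 bases upstream of a start (chr4:32238528-32238785), had the opposite order, with 36.7 and 58.3 before 4-OHT and 73.8 and 77.5 after 2 h (difference 0.80 ± 0.32, adjusted p = 0.102). An intron region at 10.5 kb was just outside the threshold, with 77.9 and 74.6 before 4-OHT and 50.5 and 44.1 after 2 h (difference -1.21 ± 0.25, adjusted p = 0.0103).

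**Figure D3:**
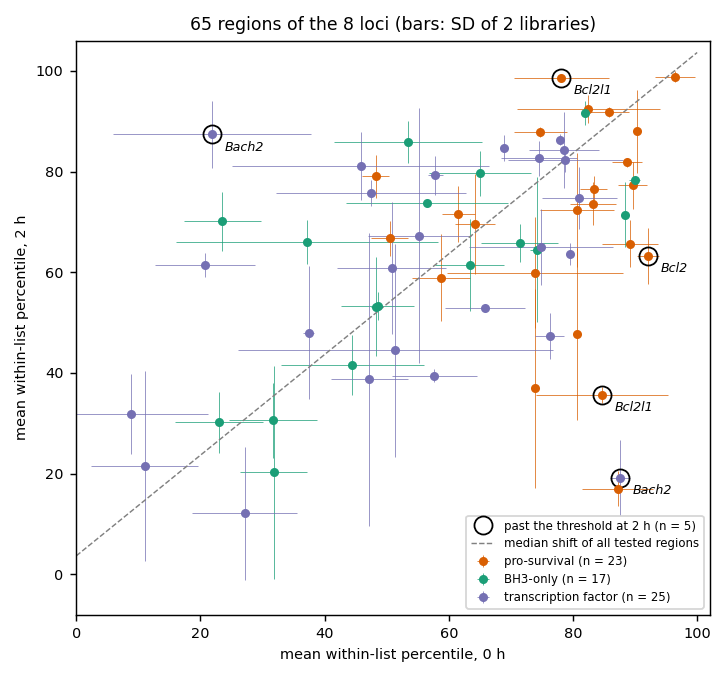
Mean within-list percentile after 2 h against that before 4-OHT for the 65 regions found in every list, with SD over 2 libraries as bars, coloured by gene group. The dashed line is the median shift of all tested regions (3.66 points); the 5 circled regions are those past the threshold, 3 below and 2 above the line.

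By gene group, the 23 tested regions of the pro-survival genes had a median shift of -6.69 percentile points from 0 h to 2 h. The 17 of the BH3-only genes had 4.74 and the 25 of Bcl6 and Bach2 had 8.08, beside 3.66 for all tested regions. Within the groups the genes differed: the median was -13.98 at Bcl2 and -8.41 at Mcl1 but 2.41 at Bcl2l1, and -5.80 at Bbc3 but 7.15 at Bcl2l11 and 4.86 at Bmf. These medians are a description of unequal sets and were not tested against each other. The groups also started at unlike levels, with median percentiles before 4-OHT of 82.44 (pro-survival), 53.4 (BH3-only) and 57.67 (Bcl6 and Bach2). In normal scores, 14 of the 23, 10 of the 17 and 10 of the 25 regions had a negative difference after 2 h. Of all tested regions 46.65% did. The pro-survival and BH3-only genes were alike in this count of signs, which does not measure the size of the differences. Among the pro-survival regions 10 had both 2 h libraries below both 0 h libraries and 6 had both above. For the BH3-only genes the counts were 2 and 6, and for the repressors 5 and 10. Over all 65 members, 17 (26.2%) were below and 22 (33.8%) above, beside 24.3% and 40.6% of all tested regions. Another 8 members had an adjusted p between 0.01 and 0.05 after 2 h, 5 with a lower and 3 with a higher rank. The share of all tested regions in that range is not given, so no excess at these loci is read from it. An unadjusted p under 0.05 (limma) was reached after 2 h by 22 of the 65 members, beside 34.53% of all tested regions.

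The presence of peaks was the second measure. A region was counted as lost when it had a peak in both lists before 4-OHT and in none of a later time, and as gained in the reverse case. At 2 h, 16 of the 91 member regions in both 0 h lists were lost (17.6%, beside 16.6% of all such regions), and 23 of the 99 in both 2 h lists were gained (23.2%, beside 20.5%). At 1 h the counts were 14 lost (15.4%, beside 14.6%) and 19 gained (20%, beside 17%). At 30 min they were 9 lost (9.89%, beside 10.9%) and 12 gained (12.9%, beside 10.3%). These shares were near those of the genome at each time. With lists cut to equal length the counts for 2 h were 18 lost and 15 gained, so the excess of gains over losses did not hold there. The shares of all regions with such lists are not given, so nothing particular to the members is read from these counts. No p-value is given, since 2 against 2 libraries cannot reach a p under 0.05 in an exact test. A missing peak says only that nothing passed the caller's q-value threshold in that list, not that the site was closed.

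After 2 h Bach2 had lost 4 of 26 regions in both 0 h lists, and 9 of its 32 in both 2 h lists were gained. For Bcl2l1 these were 2 of 13 lost and 6 of 18 gained, and for Bcl2l11 4 of 10 and 1 of 7. Bbc3 had 2 lost and none gained, Mcl1 none lost and 1 gained, Bcl2 2 and 1, Bmf 1 and 3, and Bcl6 1 and 2. These counts are small, and differences between genes were not tested. Of the 16 lost regions 8 were already lost after 30 min, and of the 23 gained regions 9 were already gained then. Most were weak peaks: the mean percentile was over 50 before 4-OHT in 5 of the lost regions and over 50 after 2 h in 6 of the gained ones.

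**Figure D4:**
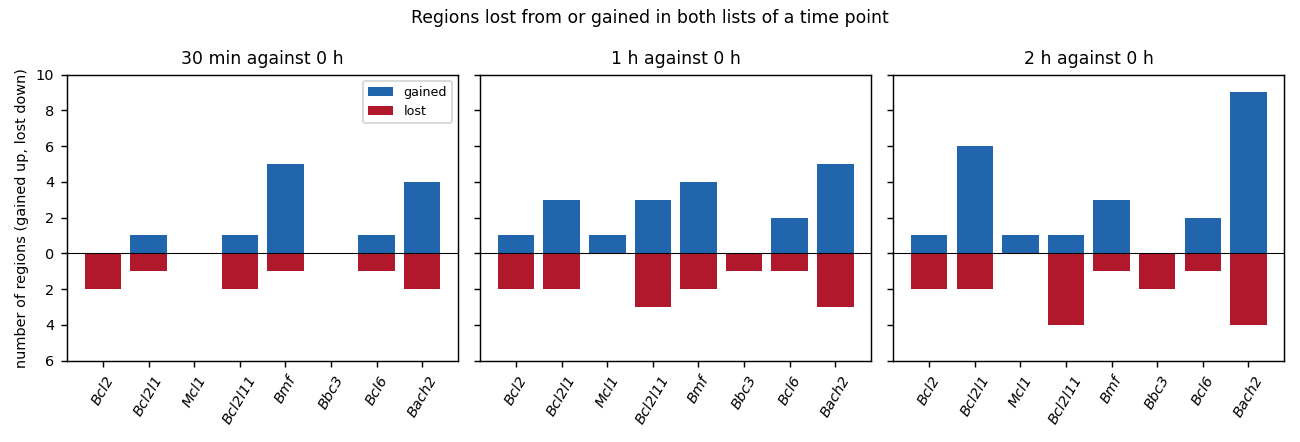
Number of regions gained (blue, up) and lost (red, down) at each of the 8 genes after 30 min, 1 h and 2 h against 0 h. Bach2 has the most gained regions after 2 h (9), and Bcl2l11 and Bach2 the most lost (4 each).

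The lost region of highest rank was in an intron of Bach2, 65.1 kb into the gene (chr4:32303705-32304011). It was at 74.9 and 84.4 before 4-OHT with 33 and 34 fragments, at 15.6 and 29.9 after 30 min with 9 and 11, and in no list after 1 h or 2 h. At Bcl2l1 a region 42.4 kb into the gene (chr2:152788845-152789444) had 63 and 52 fragments before 4-OHT, at percentiles of 65.9 and 70.4. It was left with 13 fragments in 1 list after 30 min and no peak from 1 h. Upstream of Bcl2l11, in an intron of the neighbouring gene Acoxl, a region (chr2:128117425-128117579) with 58.4 and 67.7 before 4-OHT was gone by 1 h as well. A region 12.6 kb past Bbc3, in an intron of Sae1 (chr7:16330719-16331004), had 71.9 and 56.2 before 4-OHT and a last peak in 1 list after 30 min. In introns of Bmf (chr2:118540358-118540545; 34.8 and 56.8) and Bcl6 (chr16:23982667-23982772; 13.7 and 30.6) a 0 h peak was in none of the 6 later lists. Beside the Bcl2 start site, 1 further lost region was at a start site of its own gene, at Bbc3, with 44.4 and 52.3 before 4-OHT. No gained region was at a start site of its gene.

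The gained region of highest rank was also in an intron of Bach2, 112.6 kb into the gene (chr4:32351230-32351548). Absent from both 0 h lists, it had 63.8 and 66.8 after 30 min, 75.1 and 73.9 after 1 h, and 78.4 and 82.7 after 2 h, with 28 and 26 fragments in the end. The strongest gain at Bcl2l1 was in an intron at 30.8 kb (chr2:152800854-152800973), with 61.8 and 67.7 after 30 min, 83.7 and 65.1 after 1 h, and 90.5 and 69.99 after 2 h. Both were present in all 6 lists after induction. Past the 3′ end of Bmf (chr2:118518636-118518915) a gained region had 26.1 and 26.6 after 30 min and 54.6 and 70.7 after 2 h. Past Bcl2l11 (chr2:128166731-128167040) the values were 41.0 and 12.03 after 30 min and 42.4 and 68.8 after 2 h. The gained regions of Bcl2 (29.6 and 49.4 after 2 h), Bcl6 (33.8 and 26.4) and Mcl1 (16.8 and 17) were weak.

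The windows around the summits were read for the words GGAA (complement TTCC) and, as the second IKZF1 core, GGGA (complement TCCC). The words may overlap, so that GGGAA counts as GGGA and GGAA. The 65 tested members had a median of 5 words per 200 bases, and all tested regions had 4. The regions that fell held 9 (Bcl2), 7 (Bcl2l1) and 8 (Bach2) words, whereas those that rose held 4 (Bcl2l1) and 0 (Bach2). Over the whole series, regions called lower at 2 h had a median of 6 words and those called higher a median of 3. Lost members held 4 to 10 words with a median of 6, the median of all lost regions in the series also being 6. Gained members held 0 to 6 with a median of 2, beside 3 for all gained regions. The longer word GGGAA or its complement TTCCC was in 12 of the 16 lost members (75%) and 6 of the 23 gained ones (26.1%), beside 60.1% and 27.7% of all lost and gained regions and 43.5% of all tested regions. The rank correlation of word count with the 2 h difference was -0.26 over the 65 members and -0.36 over all 47875 regions, a description across regions that share the libraries. A word is a match of letters and was not tested as a binding site.

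**Figure D5:**
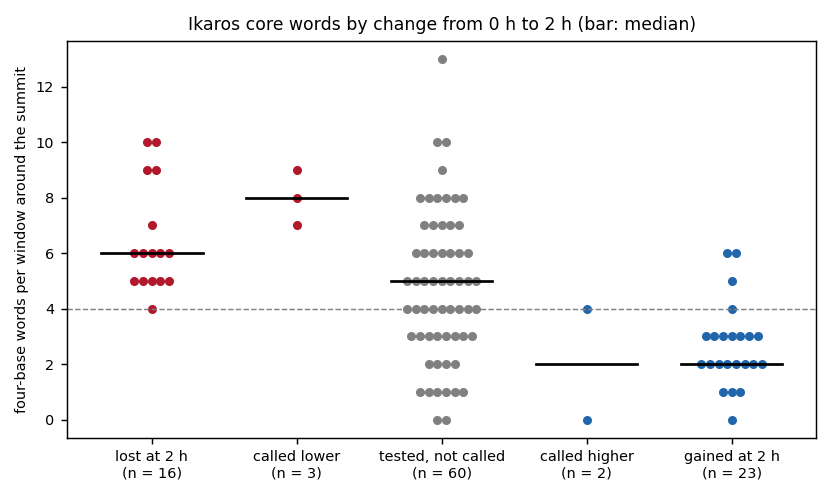
Number of core words (both strands) in the 200 bases around the summit of member regions that were lost, fell, were tested and not called, rose or were gained after 2 h (points, 1 per region; bars, medians). Lost regions have a median of 6 and gained regions a median of 2, and the dashed line is the median of all tested regions (4).

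The rest of the pathway was taken as 32 further genes of the BCL-2 family, the caspase cascade, the p53 axis and upstream regulators. Their windows held 384 regions, of which 131 were tested. At 2 h, 6 fell (4.58%, beside 4.71% of all tested regions) and 4 rose (3.05%, beside 2.28%), at 9 genes, shares near the background. The largest difference was a fall in a Trp53 intron, the p53 gene, where 96.7 and 94.0 before 4-OHT became 15.0 and 47.5 after 2 h (difference -2.88 ± 0.48, limma, adjusted p = 0.00382). Upstream of Bok, which encodes a BAX-like effector, 98.9 and 97.2 became 43.4 and 69.8 (adjusted p = 0.00226). The start-site region of Casp8, the initiator caspase of death receptors, fell from a mean of 93.8 ± 3.8 (SD, n = 2) to 68.4 ± 1.2. A region upstream of the BH3-only gene Pmaip1 also fell, and so did 2 intron regions of Foxo3, which encodes an activator of Bcl2l11. Regions near Bid, Bad, Bcl2l10 and Cdkn1a rose, the last from 14.7 and 5.93 to 82.0 and 82.2 in an intron of Trp53cor1 (difference 2.45 ± 0.26, adjusted p = 0.00106). Of these 32 genes' regions, 26 of 192 were lost (13.5%, beside 16.6% of all regions) and 31 of 193 were gained (16.1%, beside 20.5%) after 2 h.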

How the data were processed

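Per the labels and the study's methods, ATAC-seq reads of 8 libraries were demultiplexed with bcl2fastq 2.20.0 and aligned with BWA 0.7.17. The authors shifted the ends for the Tn5 offset with deepTools 2.3.5, kept short nucleosome-free fragments and called peaks with MACS2 2.1.2 on each library alone, with no control. The methods text names a human build, but labels and peak positions are those of mouse GRCm38, used throughout. The deposited lists give each peak's summit, the ratio (fold) of its fragment pileup over local background, the −log10 p-value, and the −log10 q-value, with no scaling from one library to another. The shift and paired-end calling suit ATAC-seq.

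Overlapping peaks were merged, and the highest peak of a library stood for a region. Within-list percentiles used all peaks of a list. The test used ranks among regions with a peak in all 8 lists as normal scores, in limma 3.58.1 (R 4.3.3; 4 time groups in 1 model, contrasts against 0 h, Benjamini-Hochberg adjusted p under 0.01). Whole fragments at the summit were recovered from the deposited fold and −log10 p-value for 100.0% of peaks, and 11 to 14 at the median peak limit precision. The fit and the recovery were tested on simulated data. Half-differences of same-numbered libraries correlated at 0.0172 to 0.0403 between times, so the numbers were not taken to pair samples. Annotation was GENCODE vM21, with a start site within 1 kb.

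The genes, lists and tests were chosen with earlier results of these data known. Named for each gene were the start-site region strongest at 0 h, the regions with the largest fall and rise from 0 h to 2 h, every called region, and the lost and gained regions of highest percentile. Other regions named, such as those near the threshold, were chosen after their values were seen. Regions within 20 kb of a gene may belong to its neighbours. Alternatives were another ranking, fragments over background, the p-value column, other thresholds, flanks and merging, a moderated trend, a replicate block and leaving out each library. No count table was used. A marker gene and a pathway gene of the lists are not reported here.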

Additional observations from a re-analysis of the deposited data

How the results depend on the processing

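The counts of member regions past the threshold changed with the choice of regions, of values and of the threshold. With recovered fragments over background, centred, there were 2 lower after 30 min, 7 lower after 1 h, and 9 lower and 6 higher after 2 h. Of all regions, 6.61% were then lower after 1 h, and 9.37% lower and 5.43% higher after 2 h. With a peak in at least 2 lists (absent peaks ranked lowest), 1 rose after 30 min, 8 fell and 7 rose after 1 h, and 10 fell and 6 rose after 2 h. This fit tested 146 members, not 65. Of all 126504 regions in it, 4.33% fell and 1.33% rose after 1 h, and 6.27% and 2.36% after 2 h. At an adjusted p under 0.05, 2 were lower after 30 min, 8 after 1 h and 8 after 2 h, and 5 were higher after 2 h. The share of all regions at that looser threshold is not given. A mean trend with robust prior gave 1 lower after 30 min and 5 after 2 h, the last beside 6.83% of all regions. For the counts after 30 min in these settings the share of all regions is not given. Ranks among all peaks left 1 lower after 1 h, beside 1.02% of all regions. Over all regions the calls after 2 h then split into 1305 lower and 1199 higher (52.1% lower), against 2256 and 1092 (67.4%). The p-value column left 1 higher after 1 h, beside 1.13% of all regions. A −log10 q of at least 5 left 1 higher after 1 h and 1 after 2 h, of 50 members tested. Of all regions in that fit, 1.46% and 2.67% were higher. The labels share replicate numbers, and with a replicate block 1 region was higher after 1 h and 1 after 2 h. Of the 5 calls after 2 h, the block ended that of the rise past Bcl2l1 (adjusted p = 0.0106) and no other. The block gave 902 lower and 342 higher calls over all regions after 1 h and 1905 and 860 after 2 h. Leaving out a library gave 0 to 2 lower and 0 to 2 higher after 1 h, and 1 to 4 lower and 0 to 2 higher after 2 h; a lone library is then assumed to vary like the other groups. Lost regions ranged from 20 to 32 and gained ones from 25 to 35 with a library left out, and lists of equal length gave 18 lost and 15 gained. The shares of all regions lost and gained in these settings are not given. With a library left out, a region has to show a peak, or its absence, in fewer lists. The counts of lost and gained regions can then only stay or rise. Calls over all tested regions became fewer after 1 h and after 2 h with any library left out. The cause of the other moves was not tested.

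Of 361 values of 23 named regions under 16 alternatives, 320 kept direction and side of the threshold, 19 lost the call, 12 reached it and 10 changed sign, all of these last in regions that were not called. The region of Bcl2 at 161.2 kb came to -0.33 with fragments, that of Bcl2l11 at 1.4 kb to 0.16 with fragments and 0.0071 with the p-value column, and the Bmf start to 0.13 with ranks among all peaks and 0.040 at the stricter q. With a library left out the Bcl2 start ranged from -0.61 to 0.22, the Bmf start from -0.23 to 0.16 and the Bcl6 start from -1.04 to 0.23.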

Other observations

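Several member regions that fell or were lost had a close neighbour with other values, chosen here after the values were seen and not tested as pairs. In an intron of Bcl2l1, the lost region with 63 and 52 fragments before 4-OHT had its summit 535 bases from a region with 99 and 80 fragments before 4-OHT and 94 and 86 after 2 h (percentiles 71.7 and 77.7, then 87.2 and 88.6). In an intron of Bmf, the region lost from 30 min on was 582 bases from one with 37 and 30 fragments before 4-OHT, 61 and 57 after 30 min and 49 and 48 after 2 h, which was not called after 2 h (limma, adjusted p = 0.26). In Bach2, the lost region of highest rank was 527 bases from one at 83.0 and 66.7 before 4-OHT and 59.8 and 70.3 after 2 h (adjusted p = 0.284). In an intron of Bach2, at 11.6 and 11.9 kb from the 5′ end, 2 gained regions stood beside a region at 11.1 kb that had 17.6 and 0.0245 before 4-OHT and 26.2 and 37.4 after 2 h (adjusted p = 0.0962), and beside the one at 10.5 kb with lower values after 2 h.

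A lost region of Bach2 at 298.6 kb stepped down through the lists, with 49.0 and 52.9 before 4-OHT, 32.3 and 31.1 after 30 min, 10.9 and 18.3 after 1 h and no peak after 2 h.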
